A study of Homo sapiens with 8 samples.

Results

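Proteasome genes were followed through an eCLIP experiment (enhanced crosslinking and immunoprecipitation, which sequences the RNA held by a chosen protein) on 2 RNA-binding proteins in A172, an established human glioma line. PTBP1, the polypyrimidine tract-binding protein, and IGF2BP2 (IMP2), named for binding the mRNA of insulin-like growth factor 2, were each pulled down in 2 libraries. Each immunoprecipitate (IP) had its own input, so the 8 samples form 4 groups of 2: PTBP1 IP, IGF2BP2 IP and the input of each. All cells had taken up 4-thiouridine at 500 µM for 3 h and were crosslinked in 2 exposures of 400 mJ/cm2 of light at 365 nm. No genotype, knockdown or drug distinguished the groups. What differed was the antibody, and the membrane piece that was kept, 55 to 130 kDa for PTBP1 and 65 to 140 kDa for IGF2BP2. The peak lists of the 4 IP libraries were analysed. The labels do not say whether the 2 libraries of a protein came from separate cultures. Every p-value that compares the proteins therefore measures the spread between these libraries, which may be technical. The −log10 p of a peak compares IP with input reads within a library and measures no spread between libraries.

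The genes were chosen by name. Every gene in the peak lists whose symbol is PSM followed by a letter from A to G and a number was taken, which gave 47 genes of 19767 in the lists. They held 797 and 752 peaks in PTBP1 replicates 1 and 2, and 549 and 499 peaks in IGF2BP2 replicates 1 and 2. In all, 2597 of 1843422 peaks lay in these genes. A peak was found for all 47 genes in both PTBP1 lists and for 42 genes in each IGF2BP2 list, and 41 genes had peaks in all 4 lists. Peaks marked where reads piled up. They are not read counts of a gene, and how much of each RNA the cells held was not measured in the lists, so the part of RNA abundance in any peak number was not tested.

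The proteasome is the barrel-shaped protease that degrades proteins tagged with ubiquitin. Its 20S core is built from rings of alpha subunits (PSMA genes), which gate the entry, and beta subunits (PSMB genes), some of which are proteolytic. Inducible beta subunits replace the constitutive catalytic ones in immune responses. The 19S cap holds a ring of ATPases (PSMC genes) that unfold substrates and a set of non-ATPase subunits (PSMD genes) that bind ubiquitin, remove it and hold the lid together. PSME genes encode alternative activators, PSMF1 an inhibitor of the core, and PSMG genes chaperones of core assembly. The subunits are made in fixed proportions by genes scattered over the genome, in cells of nearly every tissue. PTBP1 is known for binding pyrimidine-rich RNA next to regulated exons, and IGF2BP2 for binding mature mRNAs.

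The bases under the peaks can be shown where a reproducible region, that is, peaks of replicates 1 and 2 that overlap on one strand, lay wholly inside a window from 250 bases before to 50 bases after an annotated gene start. Such windows held 7 PTBP1 and 3 IGF2BP2 regions of the proteasome genes. For each protein, the 2 sites of at most 30 shared bases with the highest score in the weaker replicate are printed, because they are the places at which sequence and score can be read together. Sequences are from RefSeq on GRCh38.p14, 5′ to 3′ on the strand of the peak, with the bases covered in both replicates in capitals.
PSMC1, PTBP1 (chr14:90256573-90256602, plus strand, 5′ UTR): cggcaGCTCAAGTGGCCAAGGCAAGATGgt
PSMB7, PTBP1 (chr9:124384591-124384620, minus strand, coding sequence): ataagttTAGGCCAGACATGGAGgtatgta
PSMA4, IGF2BP2 (chr15:78540788-78540817, plus strand, intron): ctgTGGGCAGGACCGAGAGTTGGGGTGgct
PSMD7, IGF2BP2 (chr16:74296826-74296855, plus strand, 5′ UTR): actgggCCTGAAAGGGTACCGGTGaccgct

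Scores are log2 ratios of IP to input reads, placed on a scale common to all chromosomes of a library. At the PSMC1 site PTBP1 scored 2.0 and 2.95 in replicates 1 and 2, with the deposited −log10 p at its limit of 400 in both, and IGF2BP2 replicate 1 also had a peak there. The PSMB7 site lies in the window of another gene start, LOC124902267, inside the extent of PSMB7. There PTBP1 scored 1.49 and 1.21, from 52 IP and 15 input reads and from 39 IP and 16 input reads. The PSMA4 site had IGF2BP2 scores of 3.91 and 2.71, from 9 IP and 2 input reads and from 7 IP and 4 input reads, and both PTBP1 libraries had a peak over it. The PSMD7 site had IGF2BP2 scores of 1.74 and 0.49 and a peak in both PTBP1 libraries. Replicate 1 of IGF2BP2 had 6 IP and 6 input reads there. In replicate 2 the −log10 p was 0 and no reads were recovered. The covered bases of the PTBP1 sites were 34.8% (PSMC1) and 31.2% (PSMB7) pyrimidine, and those of the IGF2BP2 sites 29.2% (PSMA4) and 38.9% (PSMD7). The motif TCTT, searched on the strand of the peak, was in 0 of the 7 PTBP1 and 0 of the 3 IGF2BP2 regions of proteasome genes in these windows. Over the whole lists, 9.76% of 3054 PTBP1 regions and 3.26% of 2916 IGF2BP2 regions in such windows held it, with no matching for length.

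Peaks spread unevenly over the genes, and longer genes held more of them. Across the 47 genes, Spearman's rho between peak number and gene length was 0.65 and 0.64 in PTBP1 and 0.55 and 0.60 in IGF2BP2, a description over genes that share their libraries. PTBP1 replicates 1 and 2 had between 1 and 66 and between 1 and 73 peaks in a gene, with medians of 10 and 11. IGF2BP2 replicates 1 and 2 had between 0 and 48 and between 0 and 45, both with a median of 9. Per length, PTBP1 was densest on PSMC5, an ATPase gene, with 45.8 and 32.7 peaks per 10 kb, and on PSMB10, an inducible beta subunit gene, with 38.4 and 46.9 peaks per 10 kb. IGF2BP2 had 19.6 peaks per 10 kb of PSMC5 in each replicate, and 17.1 and 8.53 per 10 kb of PSMB10. These genes were picked after their values were seen. In PSMC5, 10 of 21 and 4 of 15 PTBP1 peaks had a peak on the opposite strand of the same library, so the RNA strand behind them is uncertain.

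**Figure D1:**
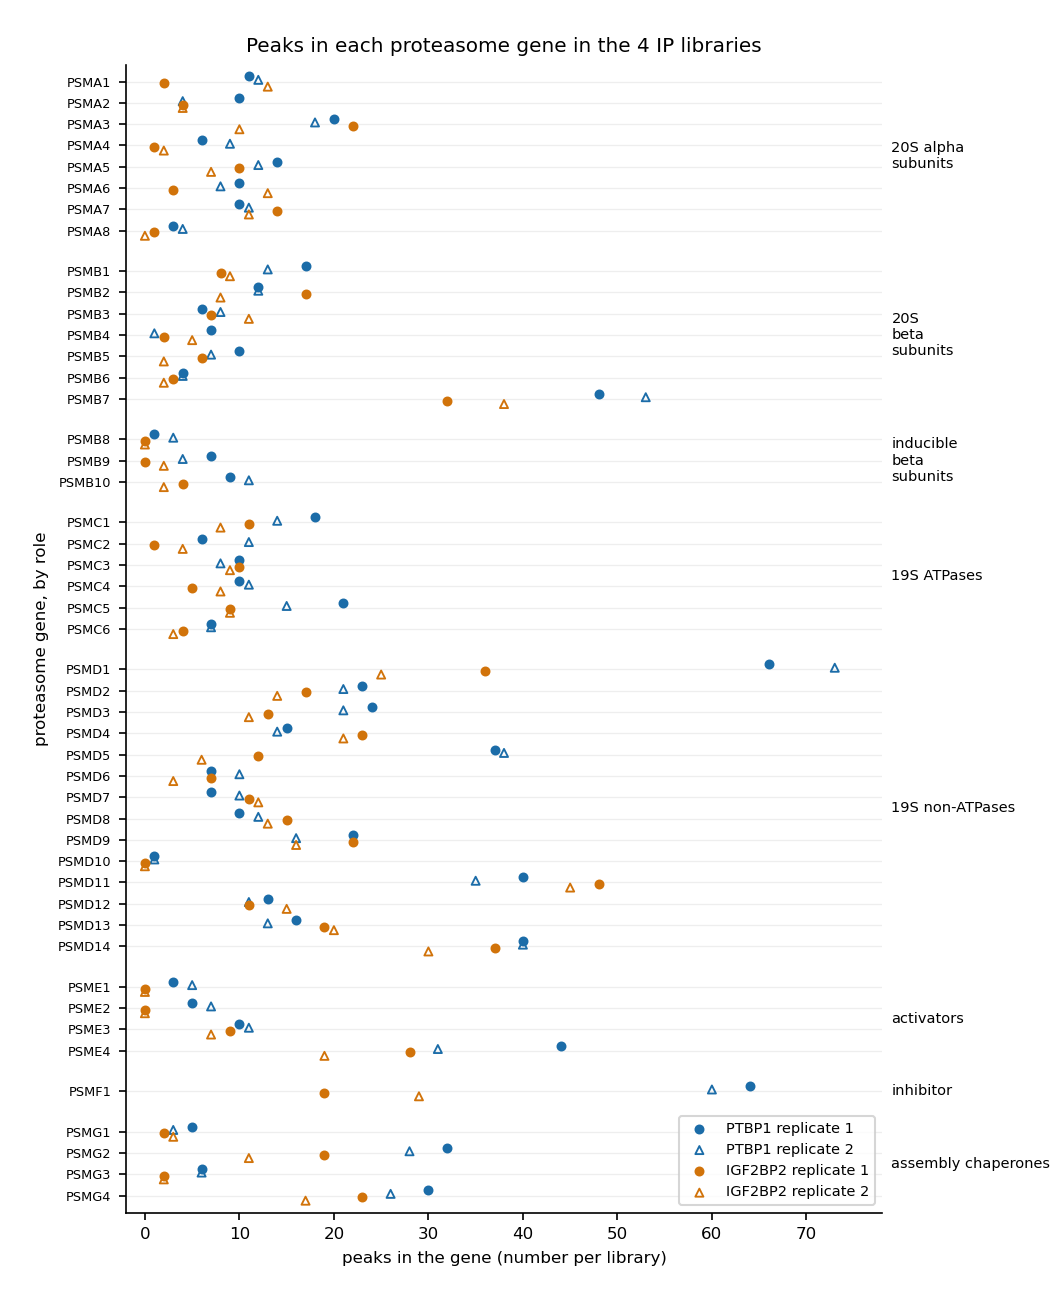
Number of peaks (x axis) in each of the 47 proteasome genes (y axis, grouped by role) in the 2 PTBP1 and the 2 IGF2BP2 libraries, 1 symbol per library. PSMD1, PSMF1 and PSMB7 held the most PTBP1 peaks (48 to 73), PSMD11 the most IGF2BP2 peaks (48 and 45), and PSMB8, PSMD10, PSME1 and PSME2 had none of IGF2BP2.

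Coding sequence held a larger share of the PTBP1 peaks in proteasome genes than of the IGF2BP2 peaks, and introns a smaller one. Of the PTBP1 peaks, 26.5% (95% Wilson interval 23.5% to 29.6%) and 25.8% (22.8% to 29.0%) lay in coding sequence, against 12.6% (10.1% to 15.6%) and 13.6% (10.9% to 16.9%) of the IGF2BP2 peaks. The means were 26.1% ± 0.48 for PTBP1 and 13.1% ± 0.75 for IGF2BP2 (SD, n = 2 each), a difference of 13.04 percentage points that is larger than either SD. Over all peaks of the lists, which include intergenic peaks, the shares were 13.3% and 13.5% for PTBP1 and 9.18% and 9.25% for IGF2BP2. That is a difference of 4.18 points. Introns held 64.1% and 66.9% of the PTBP1 peaks and 78.3% and 77.4% of the IGF2BP2 peaks in proteasome genes, a difference of -12.3 points, against -0.68 points over all peaks. For all 3 regions tested (coding sequence, intron, 3′ UTR) p was 0.333 in an exact permutation test (two-sided), the smallest that 2 libraries against 2 allow, so none could pass a threshold. The intervals cover counting error only.

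The 3′ UTRs held 4.27% and 3.32% of the PTBP1 peaks and 4.92% and 5.81% of the IGF2BP2 peaks in proteasome genes, a difference of -1.57 points. Over all peaks these shares were 3.14% and 3.29% for PTBP1 and 6.61% and 6.80% for IGF2BP2. This comparison changed when only peaks of at least 10 recovered IP reads were kept. That set also leaves out peaks without recovered reads, 28.6% and 25% of PTBP1 and 17.3% and 16.6% of IGF2BP2 peaks in proteasome genes. Recovery depends on score and −log10 p, so the part of depth alone was not tested. Among peaks of at least 10 recovered IP reads, 3′ UTRs held 3.35% of 388 and 3.98% of 327 PTBP1 peaks, against 18.9% of 53 and 20% of 35 IGF2BP2 peaks. Over the whole lists, intergenic peaks included, 3′ UTRs held 3.53% and 3.62% of such PTBP1 peaks and 14.8% and 15.1% of such IGF2BP2 peaks. The whole lists thus showed a like split. With these deeper peaks, coding sequence held 44.3% and 44.95% for PTBP1 and 18.9% and 17.1% for IGF2BP2 in proteasome genes. Over the whole lists, intergenic peaks included, it held 22.5% and 23.5% for PTBP1 and 12% and 12.2% for IGF2BP2. IGF2BP2 peaks were shallow, with a median of 4 recovered IP reads in each replicate, against 18 and 12 for PTBP1.

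**Figure D2:**
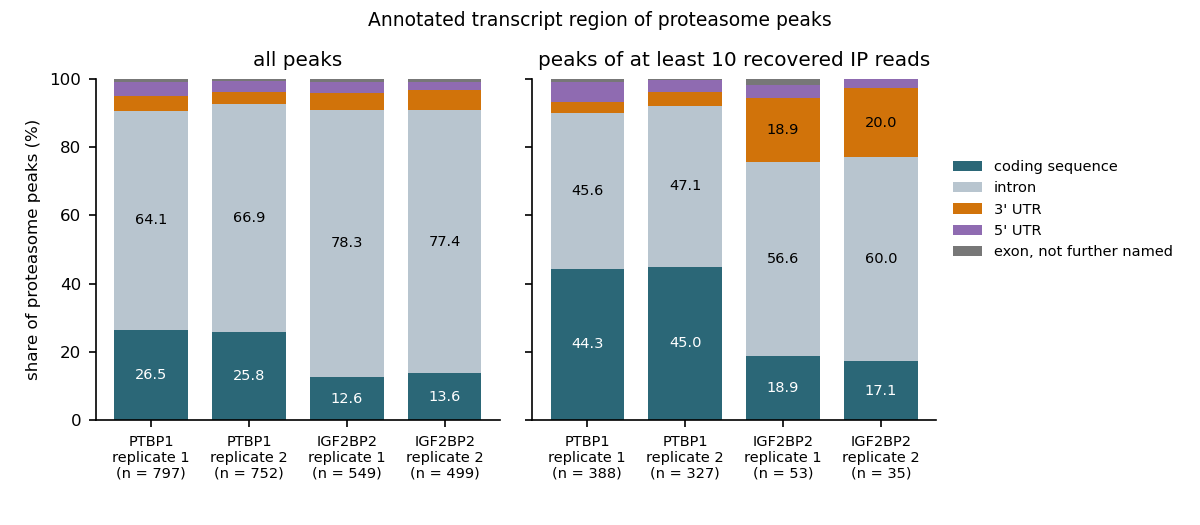
Share of proteasome peaks (y axis, in percent) annotated to each transcript region in the 2 PTBP1 and the 2 IGF2BP2 libraries (x axis, with the number of peaks), for all peaks on the left and peaks of at least 10 recovered IP reads on the right. In both panels the coding-sequence share is larger in the PTBP1 libraries, and the 3′ UTR share reaches 18.9% and 20% in the deeper IGF2BP2 peaks.

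Within a gene, coding-sequence peaks scored higher than intron peaks for PTBP1 and lower for IGF2BP2. The median difference was 0.99 log2 units over 32 genes and 1.04 over 31 genes in PTBP1 replicates 1 and 2, with 24 and 19 genes positive. It was -0.78 over 24 genes and -0.85 over 21 genes in IGF2BP2 replicates 1 and 2, with 3 and 5 genes positive. Over all genes, without pairing within a gene, median scores of coding-sequence and intron peaks were 1.153 and 2.323 in IGF2BP2 replicate 1. In IGF2BP2 replicate 2 they were 1.227 and 2.490. For PTBP1 they were 1.019 and 0.945 in replicate 1 and 1.062 and 1.030 in replicate 2. Lower coding-sequence scores of IGF2BP2 were thus also present over all genes. Few genes had both 3′ UTR and coding-sequence peaks. There the median difference, 3′ UTR minus coding sequence, was -0.21 (13 genes) and 0.49 (9 genes) in PTBP1 and 1.37 and 0.79 (7 genes each) in IGF2BP2. The PTBP1 replicates differed in sign. Among peaks of at least 10 IP reads, coding sequence minus intron was 0.42 and 0.99 in PTBP1 (26 and 18 genes), against 0.79 and -1.95 in IGF2BP2 (3 and 2 genes). The sign of IGF2BP2 thus rests on peaks that this set leaves out.

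Sites were found again in the other replicate more often for PTBP1 than for IGF2BP2. The other replicate overlapped 64.2% (95% Wilson interval 60.9% to 67.5%) and 66.5% (63.0% to 69.8%) of the peaks of PTBP1 replicates 1 and 2, and 49.0% (44.8% to 53.2%) and 55.5% (51.1% to 59.8%) of those of IGF2BP2. Over all peaks of the lists these shares were 55.6% and 61.5% for PTBP1 and 48.2% and 51.6% for IGF2BP2. The share depended on depth, and within each depth class up to 50 IP reads it was higher for IGF2BP2. At 3 IP reads it was 23.1% and 14.8% in PTBP1 and 30.2% and 40.8% in IGF2BP2, and at 10 to 50 IP reads it was 78.2% and 84.3% in PTBP1 and 88.5% and 91.2% in IGF2BP2. Only 52 and 34 IGF2BP2 peaks were in that deeper class, against 266 and 248 PTBP1 peaks.

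Joined, PTBP1 had 443 reproducible regions in 45 proteasome genes and IGF2BP2 had 247 in 40. Coding sequence held 133 PTBP1 regions in 35 genes and 27 IGF2BP2 regions in 15 genes. Introns held 268 PTBP1 regions in 33 genes and 191 IGF2BP2 regions in 35 genes. An IGF2BP2 region overlapped 76 of the 443 PTBP1 regions (17.2%), and a PTBP1 region overlapped 84 of the 247 IGF2BP2 regions (34.0%). By single peaks, an IGF2BP2 library overlapped 19.1% to 23.2% of PTBP1 peaks in proteasome genes, against 19.2% to 21.2% of all PTBP1 peaks. A PTBP1 library overlapped 34.7% to 37.9% of IGF2BP2 peaks in these genes, against 34.5% to 37.1% of all. The overlap in proteasome genes was thus near that of the whole lists. The most PTBP1 regions lay in PSMD1 (47), PSMF1 (38) and PSMB7 (36). The most IGF2BP2 regions lay in PSMD11 (28), PSMB7 and PSMD14 (19 each).

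Most of these regions scored low, and few were enriched. A region is called enriched when the score and the −log10 p are at least 3 in both replicates. PTBP1 had 22 enriched regions in 9 genes and IGF2BP2 had 12 in 9 genes, and 6 genes had both. For each protein, 9 genes are 19.1% of the 47. Over all 19767 genes with a peak, a region of this kind was present in 14% for PTBP1 and in 19.4% for IGF2BP2. Genes without a reproducible region are counted there but could not be called. Of the proteasome genes with a reproducible PTBP1 region, 9 of 45 held an enriched one, against 2775 of 15660 over all genes with such a region. For IGF2BP2 the numbers were 9 of 40 against 3840 of 13778. These differences were not tested. As a share of reproducible regions, 4.97% of the PTBP1 and 4.86% of the IGF2BP2 regions in proteasome genes were enriched. Over all regions of the lists, intergenic ones included, the shares were 2.33% and 5.95%. Single libraries had 48 (6.02%) and 43 (5.72%) enriched PTBP1 peaks in these genes, against 2.94% and 2.84% of all peaks, and 40 (7.29%) and 43 (8.62%) enriched IGF2BP2 peaks, against 9.2% and 9.36% of all peaks. The bar is not the same for both proteins, since an IGF2BP2 peak reaches a score of 3 with fewer IP reads per input read. Coding sequence held 9 of the 22 enriched PTBP1 regions and 3 of the 12 enriched IGF2BP2 regions. Introns held 8 and 6, 5′ UTRs held 3 and 1, 3′ UTRs held 2 and 0, and exons with no further name held 0 and 2. Of single enriched peaks in proteasome genes, coding sequence held 58.33% and 44.19% for PTBP1 and 10% and 16.28% for IGF2BP2. Over the whole lists, intergenic peaks included, it held 26.74% and 26.35% for PTBP1 and 5.34% and 5.73% for IGF2BP2. The 3′ UTRs held 10% and 4.65% of enriched IGF2BP2 peaks in proteasome genes, against 15.03% and 15.18% over the whole lists.

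**Figure D3:**
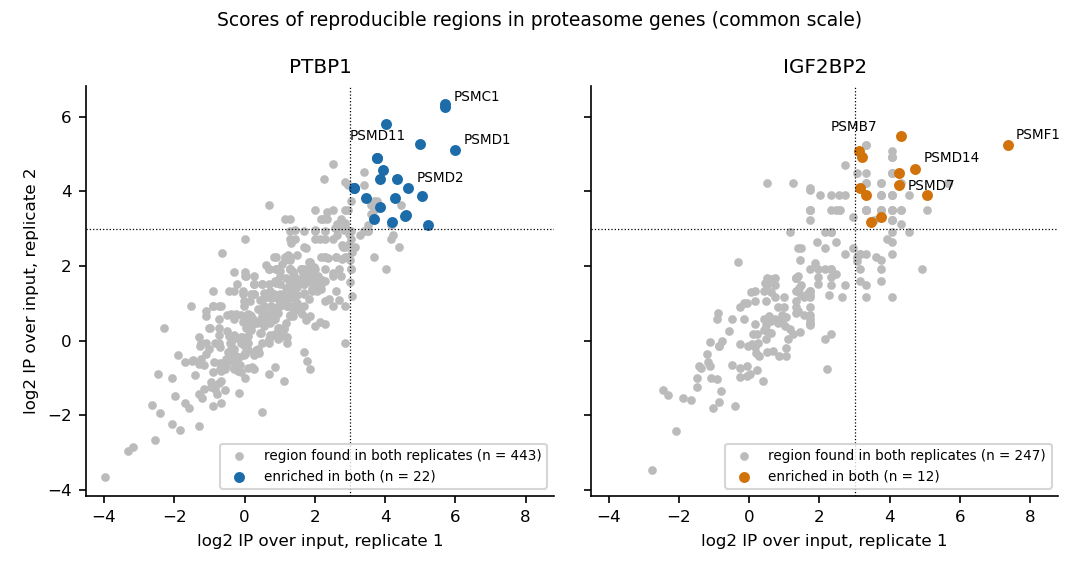
Score of each reproducible region in proteasome genes in replicate 1 (x axis) and replicate 2 (y axis), as log2 IP over input on the common scale, for PTBP1 on the left and IGF2BP2 on the right. Dotted lines mark a score of 3, coloured points are the 22 and 12 regions enriched in both replicates, and grey points past both lines missed the bar on −log10 p. The 2 topmost PTBP1 points are PSMC1 regions.

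In the 20S core, enriched regions lay in PSMA3 and PSMB7. PSMA3, an alpha subunit gene, had 20 and 18 PTBP1 peaks against 22 and 10 IGF2BP2 peaks. Its enriched region was an IGF2BP2 region in an intron (chr14:58253224-58253247, plus strand), which scored 3.20 and 4.90 from 11 IP and 4 input reads and from 8 IP and 1 input read. In PSMA3, 18 of 20 and 17 of 18 PTBP1 peaks and 14 of 22 and 7 of 10 IGF2BP2 peaks had a peak on the opposite strand. The enriched region is one of these, and without such peaks PSMA3 has none. PSMB7, the gene of the subunit with trypsin-like activity, had 48 and 53 PTBP1 peaks against 32 and 38 IGF2BP2 peaks. The PTBP1 lists are longer, and as log2 density, the share of a list's peaks on a log2 scale, PSMB7 was at -0.31 and -0.01 in PTBP1 against -0.16 and 0.17 in IGF2BP2, which overlap. Almost all were intronic, 44 and 50 for PTBP1 and 31 and 37 for IGF2BP2. PTBP1 had 3 enriched intron regions there, and IGF2BP2 had 1 (chr9:124370982-124371031, minus strand), with scores of 4.32 and 5.49 from 6 and 12 IP reads to 1 input read. No enriched region lay in the other 20S genes or in the inducible beta subunit genes.

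PSMC1 had the highest scoring PTBP1 regions by the weaker replicate. PSMC1 encodes a cap ATPase whose yeast counterpart is known for opening the gate of the core. It had 18 and 14 PTBP1 peaks against 11 and 8 IGF2BP2 peaks. Its log2 density was -1.70 and -1.89 in PTBP1 against -1.66 and -2.01 in IGF2BP2, so the groups overlapped. PTBP1 had 5 enriched regions in PSMC1 and IGF2BP2 had 0. Coding-sequence regions led. The region chr14:90263662-90263698 scored 5.72 and 6.26, from 65 and 81 IP reads to 1 input read. The region chr14:90263396-90263442 scored 5.70 and 6.33, from 64 and 85 IP reads to 1 input read. The other 3 were annotated as 5′ UTR. The first of them, chr14:90263318-90263331, scored 4.34 and 4.32 from 25 and 21 IP reads to 1 input read. The second, chr14:90260115-90260209, scored 4.02 and 5.81, and the third, chr14:90259198-90259213, 3.86 and 4.33. The deposited −log10 p was at its limit of 400 in replicate 1 of the second and in both replicates of the third, so no reads were recovered there. Chromosome 14 carries an offset of 2.53 and 2.75 in PTBP1 replicates 1 and 2 in the deposited scores, which the common scale removes. On the scores as deposited, 52 PTBP1 regions of proteasome genes would be enriched, 20 of them on chromosomes 14 and 21, against 22 and 6 on the common scale.

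PSMC3, another cap ATPase gene, held the deepest proteasome peaks among those with recovered reads, without reaching the bar. The 7 and 9 PTBP1 peaks at the −log10 p limit of 400 have no recovered reads. It is outside the rule for named genes and was picked after its values were seen. Its coding-sequence region chr11:47425867-47425947 on the minus strand had 507 IP and 52 input reads in PTBP1 replicate 1 and 356 IP and 47 input reads in replicate 2, with scores of 2.98 and 2.84. IGF2BP2 scored -1.48 and -1.0 in an overlapping region. With the bar at a score of 2, 19 genes in place of 9 held an enriched PTBP1 region.

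**Figure D4:**
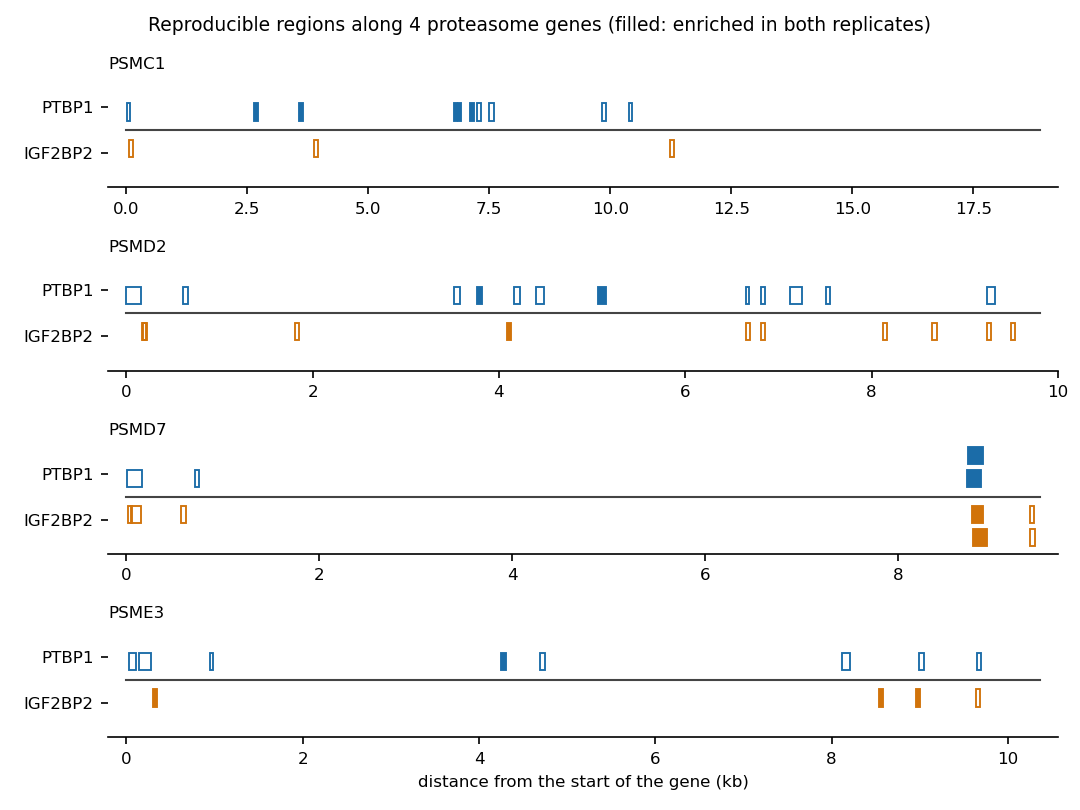
Reproducible regions along PSMC1, PSMD2, PSMD7 and PSME3, drawn to scale against distance from the gene start in kb (x axis), with PTBP1 above and IGF2BP2 below the line of each gene. Filled boxes were enriched in both replicates, and boxes in the outer row lie on the strand opposite to the gene. In PSMD7 the enriched regions of both proteins stand at the same place on both strands.

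Among the scaffolds of the cap, PSMD1 and PSMD2 held several enriched regions. PSMD1 had 66 and 73 PTBP1 peaks against 36 and 25 IGF2BP2 peaks, 55 and 64 of the PTBP1 peaks in introns. Its log2 density was 0.15 and 0.45 in PTBP1 against 0.01 and -0.42 in IGF2BP2. Its leading PTBP1 region was intronic (chr2:231098570-231098687, plus strand), scored 6.0 and 5.11, and rested on 158 IP and 2 input reads and on 109 IP and 3 input reads. A coding-sequence region of PSMD1 (chr2:231165226-231165287) scored 5.05 and 3.88, and 2 further intron regions were enriched. IGF2BP2 had no enriched region in PSMD1. PSMD2, the other large scaffold gene, had 23 and 21 PTBP1 peaks against 17 and 14 IGF2BP2 peaks, most of them in coding sequence (20 and 20 for PTBP1, 13 and 10 for IGF2BP2). PTBP1 had 2 enriched coding-sequence regions in PSMD2, of which chr3:184304308-184304392 scored 4.65 and 4.09. IGF2BP2 had 1, at chr3:184303328-184303375, which scored 3.74 and 3.32 from 12 and 8 IP reads to 3 input reads.

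PSMD7 was the gene in which enriched regions of PTBP1 and IGF2BP2 overlapped in coding sequence. PSMD7 encodes the lid partner of the deubiquitinase PSMD14. It had 7 and 10 PTBP1 peaks against 11 and 12 IGF2BP2 peaks. The PTBP1 region chr16:74305527-74305671 on the plus strand scored 3.76 and 4.88, from 267 IP and 16 input reads and from 186 IP and 6 input reads. The IGF2BP2 region chr16:74305583-74305694 scored 4.27 and 4.49, from 29 IP and 5 input reads and from 24 IP and 4 input reads. Both proteins also had an enriched region at the same place on the minus strand, with 267 and 189 IP reads for PTBP1 and 29 and 24 for IGF2BP2. Equal or nearly equal reads on both strands leave the strand of this RNA uncertain, and without peaks that have a partner on the opposite strand these 4 regions drop out.

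In PSMD11, PSMD13 and PSMD14, which encode a lid scaffold, a further lid subunit and the deubiquitinase, IGF2BP2 had an enriched intron region each. PSMD14 had 40 PTBP1 peaks in each replicate against 37 and 30 IGF2BP2 peaks. Its IGF2BP2 region (chr2:161339749-161339844, plus strand) had the most recovered IP reads of any IGF2BP2 peak in proteasome genes, with 63 and 52 IP reads to 8 input reads and scores of 4.72 and 4.61. PTBP1 had a reproducible region over it that scored -0.79 and -1.42. PSMD11 had an IGF2BP2 intron region (chr17:32467267-32467293) at 3.48 and 3.18, from 20 IP and 6 input reads and from 17 IP and 7 input reads. PTBP1 had its enriched 3′ UTR regions of the proteasome here. The higher, chr17:32481569-32481703, scored 5.0 and 5.27 from 158 IP and 4 input reads and from 122 IP and 3 input reads. In PSMD13 the IGF2BP2 region was chr11:249436-249496, with scores of 3.12 and 5.07 from 13 IP and 5 input reads and from 9 IP and 1 input read. Inside the higher PSMD11 3′ UTR region, an IGF2BP2 region scored 3.32 and 2.32 from 6 and 4 IP reads and was not enriched.

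Among the activators, PSME3, the nuclear activator gene, had 10 and 11 PTBP1 peaks against 9 and 7 IGF2BP2 peaks. It held 1 enriched PTBP1 region in coding sequence (chr17:42837649-42837699), which scored 3.95 and 4.57 from 19 and 25 IP reads to 1 input read. IGF2BP2 had 3 enriched regions in PSME3, the most of any proteasome gene. A 5′ UTR region (chr17:42833702-42833732) scored 3.32 and 3.90, and exon regions scored 5.06 and 3.90 (chr17:42841929-42841973) and 3.15 and 4.07 (chr17:42842353-42842380). PSME1 and PSME2, whose products form the interferon-inducible activator, had no IGF2BP2 peak. PSME1 had 3 and 5 PTBP1 peaks against 0 and 0 of IGF2BP2, all in coding sequence, and 1 enriched PTBP1 region. PSMF1, the gene of a core inhibitor, had 64 and 60 PTBP1 peaks against 19 and 29 IGF2BP2 peaks. Its IGF2BP2 intron region chr20:1114656-1114705 scored highest for that protein, at 7.35 and 5.23, from 49 and 10 IP reads to 1 input read. PTBP1 scored 3.60 and 3.62 over it, from 15 and 13 IP reads to 1 input read, and missed the bar on −log10 p. An input of 1 read is the fewest that was recovered and may stand for 0, and it underlies at least 1 replicate of 12 enriched PTBP1 and 5 enriched IGF2BP2 regions. Beyond the 10 highest, the other 12 enriched PTBP1 regions had weaker-replicate scores of 3.09 to 3.83.

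Peak density, the share of a library's peaks that fell in a gene, was then tested with limma over all genes with at least 10 peaks in the 4 libraries. Of the 47 proteasome genes 43 entered, 2 were denser in PTBP1, 4 were denser in IGF2BP2 and 37 did not pass an adjusted p of 0.05. Over all 15145 genes tested, 12.7% were denser in PTBP1 and 12.3% in IGF2BP2, and the 2 and 4 of 43 proteasome genes did not exceed these shares. Their median log2 difference, PTBP1 minus IGF2BP2, was -0.09, against -0.01 over all genes tested. By role, the calls were 1 toward PTBP1 and 4 toward IGF2BP2 among 13 tested PSMD genes and 1 toward PTBP1 among 3 PSME genes. No gene of the 20S core, of the ATPase ring or of the core assembly chaperones (PSMG genes) passed. At an unadjusted limma p under 0.05 the 43 genes gave 13, against 6056 of all 15145 genes tested, a larger share.

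PSMD5, an assembly chaperone of the ATPase ring, had 37 and 38 PTBP1 peaks against 12 and 6 IGF2BP2 peaks, a log2 difference of 1.38 ± 0.33 (SE, n = 2 each, limma adjusted p = 0.024). In each PTBP1 library 29 of these peaks had a partner on the opposite strand, against 8 and 2 in IGF2BP2. Leaving those out, an alternative chosen once the data had been seen, the difference was 0.32 ± 0.44 (limma adjusted p = 0.624). The call was also lost without PTBP1 replicate 2 (1.29, limma adjusted p = 0.099) and when shallower peaks than 10 IP reads were dropped (0.67, limma adjusted p = 0.511). PSME2, the partner of PSME1, had 5 and 7 PTBP1 peaks, all in coding sequence, against 0 and 0 of IGF2BP2. Its fitted difference of 2.99 ± 0.78 (limma adjusted p = 0.033) depends on the pseudocount, as it rests on few peaks, and with a pseudocount of 2 it was 1.30 (limma adjusted p = 0.060).

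**Figure D5:**
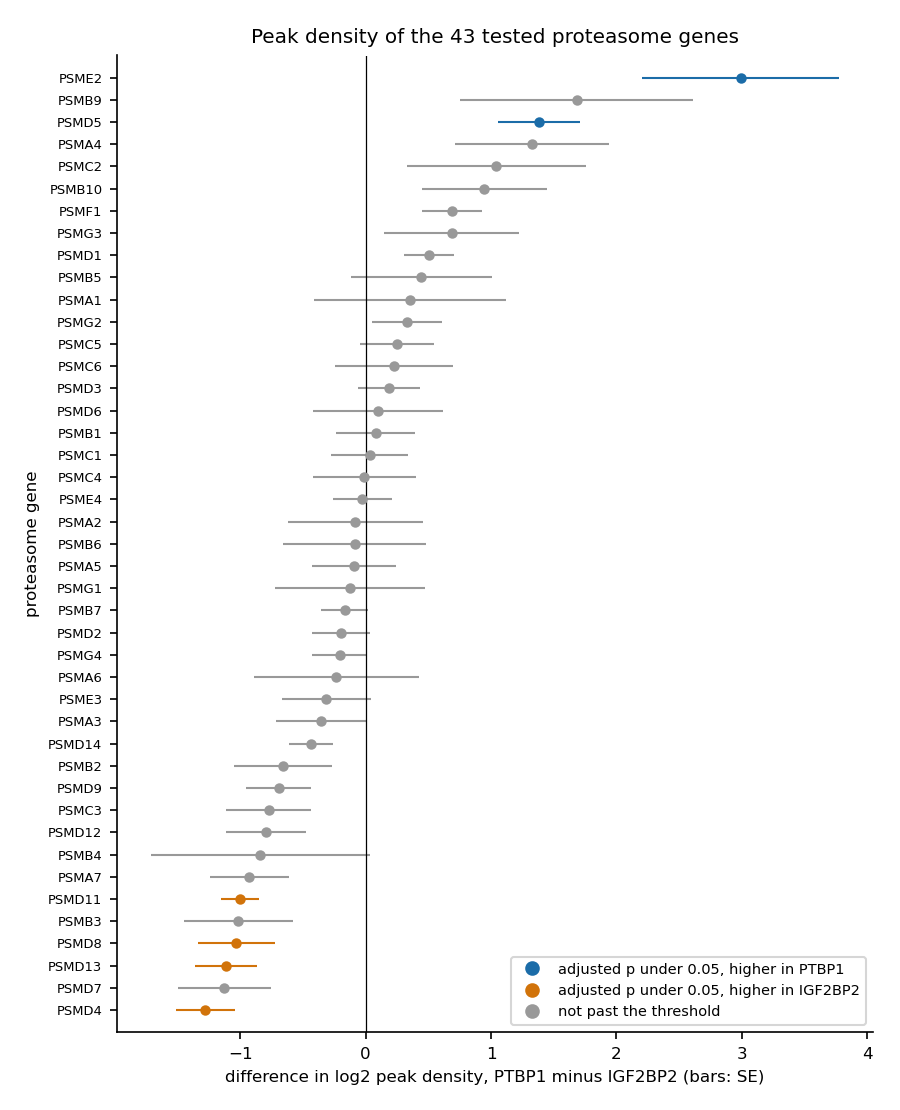
Difference in log2 peak density, PTBP1 minus IGF2BP2 (x axis, points with SE bars), for the 43 tested proteasome genes (y axis), with genes past a limma adjusted p of 0.05 in colour. PSME2 and PSMD5 pass on the PTBP1 side, PSMD4, PSMD13, PSMD8 and PSMD11 on the IGF2BP2 side, and the bars of most other genes cross or come near 0.

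The 4 genes denser in IGF2BP2 are parts of the cap. PSMD4, a ubiquitin receptor gene, had 15 and 14 PTBP1 peaks against 23 and 21 IGF2BP2 peaks (-1.28 ± 0.23, limma adjusted p = 0.010). PSMD11 had 40 and 35 PTBP1 peaks against 48 and 45 IGF2BP2 peaks (-1.0 ± 0.15, limma adjusted p = 0.005). PSMD13 had 16 and 13 PTBP1 peaks against 19 and 20 IGF2BP2 peaks (-1.12 ± 0.25, limma adjusted p = 0.019), and PSMD8, a lid subunit gene, had 10 and 12 against 15 and 13 (-1.03 ± 0.31, limma adjusted p = 0.049). The PTBP1 lists were longer, so these log2 differences are larger in size than those of the plain peak numbers. In PSMD4 the surplus of IGF2BP2 peaks was in introns, which held 2 and 1 PTBP1 peaks against 16 and 14 IGF2BP2 peaks, while coding sequence held 12 and 12 PTBP1 peaks against 6 and 7 IGF2BP2 peaks. No PSMD4 peak of IGF2BP2 had more than 9 recovered IP reads, and the deepest PTBP1 peaks with recovered reads had 192 and 128. A further PTBP1 region of PSMD4, chr1:151267263-151267385, was at the −log10 p limit of 400 in both replicates, with scores of 2.64 and 2.84 and reads that could not be recovered.

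The direction turned for some genes when only peaks of more recovered reads were counted. Counting peaks of at least 10 IP reads, PSMD4 was denser in PTBP1 (2.56 ± 0.31, limma adjusted p = 0.005), PSMD8 had 1.20 (limma adjusted p = 0.145), and PSMD11 (0.27) and PSMD13 (0.04) were near 0. This setting moved the median of all genes tested to 0.64, so a value near 0 lies below it. PSMD8 lost its call under TMM scaling (-0.99, limma adjusted p = 0.055) and with no filter on peaks (-1.03, limma adjusted p = 0.064). It also lost it without PTBP1 replicate 1 (-0.83, limma adjusted p = 0.303) or replicate 2 (-1.23, limma adjusted p = 0.130), and PSMD13 lost it without PTBP1 replicate 1 (-1.18, limma adjusted p = 0.061) or replicate 2 (-1.05, limma adjusted p = 0.090), and with the best 25% of peaks (-1.10, limma adjusted p = 0.114). With all peaks counted, the genes with 3 or more enriched PTBP1 regions had no density call. PSMC1 was at 0.04 ± 0.31, PSMD1 at 0.50 ± 0.20 and PSMB7 at -0.17 ± 0.19 (limma adjusted p = 0.941, 0.106 and 0.542).

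Some members had few peaks. PSMB8, an inducible catalytic subunit gene, had 1 and 3 PTBP1 peaks against 0 and 0 of IGF2BP2. PSMD10, which encodes the base assembly chaperone gankyrin, had 1 PTBP1 peak in each replicate against 0 and 0. These numbers were too small for the density test. PSMA8, the testis-specific alpha subunit gene, had 3 and 4 PTBP1 peaks against 1 and 0 of IGF2BP2, and PSMB9, another inducible subunit gene, had 7 and 4 against 0 and 2. These and the chaperones were picked after their values were seen. Of the 4 core assembly chaperone genes (PSMG), PSMG2 and PSMG4 held most peaks. PSMG2 had 32 and 28 PTBP1 peaks against 19 and 11 of IGF2BP2, and PSMG4 had 30 and 26 against 23 and 17. None of the 4 had an enriched region.

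Partners of the proteasome were called by density about as often as other genes. Of 31 genes for ubiquitin receptors, deubiquitinases, shuttles, ubiquitin-activating enzymes and regulators of proteasome genes, 4 were denser in PTBP1, 5 were denser in IGF2BP2 and the others did not pass, beside 12.7% and 12.3% of all genes tested. ADRM1, a ubiquitin receptor of the cap, had 22 and 19 PTBP1 peaks against 26 and 25 IGF2BP2 peaks (-1.0 ± 0.20, limma adjusted p = 0.014). SEM1, a small lid subunit gene, had 47 and 25 against 9 and 5 (1.57 ± 0.37, limma adjusted p = 0.024). NFE2L1, the transcription factor that drives proteasome genes when the protease is inhibited, had 29 and 30 against 43 and 39 (-1.16 ± 0.17, limma adjusted p = 0.005). Enriched regions of PTBP1 lay in 11 and those of IGF2BP2 in 10 of the 31 genes, beside 14% and 19.4% of all genes with a peak. A reproducible region was present in 31 of these genes for PTBP1 and in 30 for IGF2BP2. Of all genes with such a region, 2775 of 15660 and 3840 of 13778 held an enriched one. The difference was not tested.

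As a description of the cells, 9 of 11 markers of glioma lines had peaks. EGFR had 335 and 312 PTBP1 peaks against 207 and 202 IGF2BP2 peaks. Of these, 28 and 23 PTBP1 and 23 and 20 IGF2BP2 peaks lay in coding sequence or 3′ UTR. VIM had 29 and 20 against 8 and 8. GFAP had only 2 and 3 against 2 and 0, and TNC 2 and 2 against 1 and 1. S100B and SOX2 had none. Of 11 markers of leukocytes, hepatocytes, neurons and epithelium, 8 had peaks. Among them, the leukocyte gene PTPRC had 13 and 7 PTBP1 peaks against 9 and 5 IGF2BP2 peaks, and 3 enriched IGF2BP2 regions. The neuronal genes RBFOX3 and SYT1 had 183 and 170 and 130 and 111 PTBP1 peaks against 78 and 59 and 28 and 19 of IGF2BP2, and at most 6 peaks of a library lay in their coding sequence or 3′ UTR. CD3E, ALB and APOA1 had none.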

How the data were processed

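The 4 IP peak lists were used as deposited, and the input libraries entered through the ratios in those lists. HISAT2 and hg38 are named in the submitters' processing notes. Which caller and annotation were used, and how reads that map to several places were treated, is not stated there, and several proteasome genes have pseudogene copies, so placement there is uncertain. The authors deposited a −log10 p per peak, which stops at 400, and a column of log2 values, which hold log2 IP over input plus a constant per chromosome. That constant was read from the commonest value (3 IP reads to 1 input read). IP and input reads were recovered where the log2 was at least 0 and the −log10 p between 0.1 and 400, with a tolerance of 1%; this worked for 99.98% to 99.99% of such peaks, by a match to an exact binomial or chi-square test. All chromosomes were then moved to the median constant of the library (-0.30 and -0.08 in PTBP1, 1.74 and 1.90 in IGF2BP2) and p was recomputed; peaks without recovered reads kept the deposited p. Depth is known per peak only, with medians of 11 and 9 IP reads in the PTBP1 lists and 4 and 4 in the IGF2BP2 lists (600615, 538802, 362700 and 341305 peaks). Shares carry 95% Wilson intervals. Peaks overlapped at 1 nt or more on the same strand.

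Density was log2((peaks + 0.5)/(list peaks + 1) × 10000), tested with limma 3.58.1 (R 4.3.3, trend, Benjamini-Hochberg over all genes tested). In simulated lists of 14648 genes, limma found 21% of 2-fold and 95% of 4-fold changes, and 7.94% of its calls were false. The changed genes had a mean of at least 10 peaks a library, and the spread was set rather than taken from the lists. The rates therefore do not cover sparser genes such as PSME2. In further tests on simulated cases, recovery and overlap came back right in 100% of cases. The recovery cases were made with the same p-value tests and with known constants. They therefore check neither against the deposited lists. Python 3.11.15, pandas 2.3.3 and scipy 1.17.1 were used. Gene extents, names and sequences came from RefSeq GRCh38.p14 tables, and 41 of 47 genes had a promoter entry. Named genes were those with a region enriched in both replicates, a density call, the 3 highest numbers of reproducible regions, or no peak of a protein. Given by position are the 10 highest scoring enriched PTBP1 regions and all enriched IGF2BP2 regions. The members and lists were chosen with earlier results of these data known. Alternatives changed the pseudocount, filter, scaling, peak depth, score bar, overlap, replicate block and replicates. The labels do not say whether same-numbered libraries of the 2 proteins share a culture or day.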

Additional observations from a re-analysis of the deposited data

How the results depend on the processing

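Density calls changed with which peaks and which libraries were used. Against 2 genes denser in PTBP1 and 4 denser in IGF2BP2 (1922 and 1860 of 15145 over all genes), a pseudocount of 2 gave 1 and 6 (2009 and 2510). Nucleotides covered gave 5 and 9 (3209 and 3196), and peaks of at least 10 IP reads gave 7 and 1 of 23 genes tested (2671 and 1270 of 7882). The best 25% of peaks gave 8 and 0 of 28 in limma (1268 and 1319 of 7818), with 2 toward IGF2BP2 at an unadjusted p under 0.05. Enriched peaks, an alternative chosen after seeing the data, gave 3 and 0 of 6 in limma (499 and 480 of 2521), with 0 toward IGF2BP2 at an unadjusted p under 0.05. Leaving out each library gave 1 to 7 toward PTBP1 and 2 to 10 toward IGF2BP2 (1114 to 3422 and 1153 to 2966). The highest of each, 7 and 10, came without IGF2BP2 replicate 2, and without IGF2BP2 replicate 1 they were 5 and 9. The replicate block gave 3 and 5 (2472 and 2291). Same-numbered libraries of the 2 proteins did not deviate together (r = -0.0016 across 15145 genes). With 2 libraries per protein, this cannot show whether the numbers mark a shared culture or day.

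Enriched PTBP1 regions numbered 22 in 9 genes. They became 52 in 18 genes on the scores as deposited, 14 with −log10 p of at least 5, and 49 in 19 genes with a score of at least 2. Single replicates gave 43 to 48 in 14 to 15 genes. The 12 IGF2BP2 regions in 9 genes became 5 in 4 genes with −log10 p of at least 5, and single replicates gave 40 to 43 in 19 to 20 genes. With at least 10 IP reads, 215 PTBP1 and 22 IGF2BP2 regions were reproducible. The other replicate then shared 83.0% and 87.2% of PTBP1 and 88.7% and 91.4% of IGF2BP2 peaks. The 3′ UTR minus coding-sequence score of IGF2BP2 replicate 1 was then 0.27 in 2 genes, and replicate 2 had no gene left. The 3′ UTR share differed by -15.8 points then, against -1.57 points for all peaks. The coding-sequence difference of 13.04 points was 26.6 then and 38.1 for enriched peaks, and the intron difference of -12.3 was -39.1 for enriched peaks and -6.84 by nucleotides. Over the whole lists, intergenic peaks included, enriched peaks differed by 21.01 points in coding sequence and -8.41 points in introns.

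Log2 density differences changed sign as follows. With a pseudocount of 2, PSMC1 had -0.043. With nucleotides covered, PSMA3 had 0.17, PSMB7 0.00079 and PSMC1 -0.018. With at least 10 IP reads, PSMD2 had 2.41, PSMD4 2.56, PSMD8 1.20, PSMD11 0.27, PSMD13 0.044 and PSME3 0.036. With the best 25% of peaks, PSMD2 had 2.49, PSMD4 1.97, PSMD8 1.53 and PSMD11 0.21. With enriched peaks, PSMB7 and PSMD7 had 0.99, PSMD2 2.74 and PSMD11 1.21. Leaving out a library gave -0.86 to 0.15 for PSMA3 and -0.14 to 0.21 for PSMC1. The other values of named genes kept their sign, 146 on the same side of the threshold, 20 newly past it and 11 no longer past it. The cause of these changes was not tested. Few IP reads per IGF2BP2 peak limit the precision, and 2 libraries a group allow no exact p below 0.333.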
